A study of Rattus norvegicus with 30 samples.

Results

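The early response of hippocampal neurons to cannabidiol (CBD) was set against their response to dimethyl fumarate (DMF) as a difference of differences at 4 h, in which the log2 change between DMF and its vehicle was taken away from the log2 change between CBD and its vehicle. The libraries were chosen by their labels, and the contrast used 12 of the 30 RNA libraries of the series, 3 in each of 4 groups, numbered 1 to 3, with that replicate number as a block. The groups were wild-type neurons given 6 µM CBD, its vehicle ethanol (EtOH), 30 µM DMF, or its vehicle dimethyl sulfoxide (DMSO), for 4 h, with each vehicle at 0.2%. The cells were primary hippocampal neurons of Wistar rat embryos at embryonic day 18 that had grown in culture for 7 days. Both the dose and the vehicle differed between the drugs, so that each difference given here is one between 6 µM CBD in EtOH and 30 µM DMF in DMSO. The study asked how the transcriptomic changes of the drugs compare.

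CBD belongs to the compounds that hemp makes, and DMF, a fumaric acid ester, reacts with thiol groups and activates Nrf2, the transcription factor that Keap1 holds back in resting cells and that drives antioxidant genes. Metallothioneins are small proteins that bind zinc, and their genes are switched on by the metal-sensing factor Mtf1 through metal response elements. Misfolded protein in the endoplasmic reticulum (ER) raises chaperone genes through the ER stress element, which the factors Atf6 and Xbp1 read together with NF-Y, while the factor Atf4 raises genes of amino acid supply.

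Between 15329055 and 25367834 reads per library lay on genes, with a median of 20429626. Neuron markers summed to between 5145 and 6419 CPM (counts scaled to a common library total) and astrocyte markers to between 1870 and 4700 CPM, with the lowest astrocyte sums in replicate 3 of all 4 groups. Oligodendrocyte lineage markers summed to between 466 and 853 CPM, and the 8 microglia markers to at most 10.8 CPM, with Cx3cr1, Tmem119 and C1qa at 0 in some libraries. The cultures therefore held RNA of astrocytes and of oligodendrocyte lineage cells beside that of neurons. In RNA of such mixed cultures, fewer cells of a type and less RNA per cell cannot be told apart. A pair of libraries stood apart. DMSO replicate 1 held 2481 CPM of immediate early genes against 1020 to 1279 CPM in the other 11 libraries, and CBD replicate 1 held 4006 CPM of ER chaperone and unfolded protein response genes against 5270 and 5065 CPM in the other CBD libraries.

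Of 14615 genes tested, 1527 differed between the effects of the drugs at an adjusted p under 0.05 in limma, the threshold for every call below, which is 10.4% of the genes tested. Of these, 846 were higher with CBD (5.79% of the genes tested) and 681 were higher with DMF (4.66%), where higher means that the change from the vehicle was more positive. Most of the called differences lay in genes that were called with DMF and not with CBD. With CBD, 1522 genes had an unadjusted p under 0.05 in limma, so a gene not called is not shown to be unchanged. DMF changed 3262 genes (22.3%), 1615 of them upward (11.1%) and 1647 downward (11.3%), whereas CBD changed 54 (0.369%), 43 upward (0.294%) and 11 downward (0.0753%). The fit gave each gene a common spread for all groups, so the standard error was the same for both effects by design (median 0.09 on the log2 scale). It does not compare how precisely the effect of each drug was measured. Without the replicate block, 148 genes were called for the difference, 1235 with DMF and 3 with CBD.

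The calls were sorted into classes. A gene was DMF-specific if the difference and the DMF effect were called and the CBD effect was not, and CBD-specific in the converse case. There were 1351 DMF-specific genes, 611 of which rose and 740 fell with DMF, and 13 CBD-specific genes, 11 of which rose and 2 fell with CBD. For 1031 of the DMF-specific genes the CBD estimate, though not called, had the sign opposite to the DMF change. The choice of genes with a called difference favours such signs. Both drugs changed 24 genes in the same direction, 16 upward and 8 downward, which made up 44.4% of the genes called with CBD and 0.736% of those called with DMF. Another 7 genes rose with CBD and fell with DMF, and none fell with CBD and rose with DMF. The difference was called for 155 genes that were called with neither drug alone, and a further 1880 genes were called with DMF but not with CBD or for the difference, so that they cannot be counted as specific. Without CBD replicate 1, CBD changed 183 genes, and the shared, CBD-specific and opposite classes held 77, 53 and 26 genes.

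The promoters of 6 genes, picked from the zinc genes of the CBD-specific class and the ER genes of the shared class, are shown first. They are the 250 bases before the start of the gene in the RefSeq annotation of build GRCr8, 5′ to 3′ on the strand of the gene. In the first 3, capitals mark matches to the core of the metal response element, searched as TGCACNC and TGCGCNC on both strands. They belong to Mt1 (chr19:10832976-10833225, minus strand), Mt2A (chr19:10838709-10838958, minus strand) and Slc30a1 (chr13:106021769-106022018, plus strand), with 6, 4 and 2 matches.
Mt1: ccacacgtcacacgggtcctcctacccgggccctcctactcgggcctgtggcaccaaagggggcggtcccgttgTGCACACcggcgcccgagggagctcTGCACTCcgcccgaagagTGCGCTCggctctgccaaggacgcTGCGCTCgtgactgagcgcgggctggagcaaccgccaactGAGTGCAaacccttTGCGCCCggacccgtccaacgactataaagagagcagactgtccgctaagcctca
Mt2A: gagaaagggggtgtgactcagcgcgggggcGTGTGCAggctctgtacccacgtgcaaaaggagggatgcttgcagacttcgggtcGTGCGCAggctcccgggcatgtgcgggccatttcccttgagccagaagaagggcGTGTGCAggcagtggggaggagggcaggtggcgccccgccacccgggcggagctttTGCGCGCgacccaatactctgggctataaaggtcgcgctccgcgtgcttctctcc
Slc30a1: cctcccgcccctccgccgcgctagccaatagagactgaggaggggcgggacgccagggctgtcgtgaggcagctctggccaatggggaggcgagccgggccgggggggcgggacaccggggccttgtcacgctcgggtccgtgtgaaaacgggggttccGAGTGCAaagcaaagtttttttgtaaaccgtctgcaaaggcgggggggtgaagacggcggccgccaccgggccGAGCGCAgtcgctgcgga
In the next 3, capitals mark the ER stress element, searched on both strands as CCAAT and CCACG with 9 bases between them, or as ATTGG and CCACG with 1 base between them. They belong to Hspa5 (chr3:38452766-38453015, plus strand), Herpud1 (chr19:10614708-10614957, minus strand) and Creld2 (chr7:121789134-121789383, plus strand), with 1 match each.
Hspa5: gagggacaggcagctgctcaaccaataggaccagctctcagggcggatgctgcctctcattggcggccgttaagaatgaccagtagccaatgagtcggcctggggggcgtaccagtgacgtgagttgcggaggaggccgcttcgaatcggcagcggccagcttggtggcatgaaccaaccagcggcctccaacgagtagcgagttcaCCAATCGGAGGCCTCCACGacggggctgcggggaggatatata
Herpud1: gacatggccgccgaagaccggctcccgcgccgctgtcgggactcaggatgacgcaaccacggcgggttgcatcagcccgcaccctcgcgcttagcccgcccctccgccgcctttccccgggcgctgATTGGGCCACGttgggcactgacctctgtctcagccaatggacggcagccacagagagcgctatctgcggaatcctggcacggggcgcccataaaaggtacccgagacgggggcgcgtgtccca
Creld2: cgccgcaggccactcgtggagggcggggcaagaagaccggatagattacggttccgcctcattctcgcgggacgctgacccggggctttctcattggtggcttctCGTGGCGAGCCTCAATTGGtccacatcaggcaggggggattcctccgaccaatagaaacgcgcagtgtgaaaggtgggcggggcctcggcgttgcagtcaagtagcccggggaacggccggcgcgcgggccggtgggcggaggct
Metal response element cores occurred in the promoters of 7 of the 10 CBD-specific genes that had a promoter sequence, and in 31.2% of the promoters of the 11108 tested genes that had one. In the shared class they occurred in 7 of 20 promoters (35%). The ER stress element occurred in 6 of 20 promoters of shared genes, in 0 of the 10 of CBD-specific genes, and in 0.225% of those of the tested genes. All 6 were of ER list genes, and 10 of the 19 promoters of the ER list had it, including genes outside the shared class. The antioxidant response element, searched as TGACNNNGC on both strands, occurred in 137 of 1077 promoters of DMF-specific genes (12.7%) and in 12.4% of those of the tested genes. It also occurred in 3 of the 10 of CBD-specific genes, those of Mt1, Mt2A and Slc30a1, and in 6 of 28 of the Nrf2 list (21.4%). A match describes these letters only and does not show that a factor bound there.

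Genes of zinc handling led the CBD-specific class, with 6 of its 13 members. Slc30a1 (chr13:103491037-103494910 in build mRatBN7.2, which the count tables use), the exporter that moves zinc out of the cell, stood at normalized read counts (reads divided by the size factor of the library) of 680.3, 624 and 617 in the EtOH libraries and 1385, 1527 and 1442 in the CBD libraries. In the DMSO libraries it stood at 615, 738 and 659, and in the DMF libraries at 663, 666 and 636. All 3 CBD libraries lay above the other 9, which overlapped. The log2 change was 1.18 ± 0.07 (SE) with CBD, a 2.26-fold rise, and -0.03 ± 0.07 with DMF, and the difference was 1.21 (95% interval 1.00 to 1.42, adjusted p = 1.08e-05 in limma).

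The metallothionein gene Mt1 (chr19:10826032-10827049) had normalized read counts of 373, 366 and 172 with EtOH, and 2323, 6165 and 2591 with CBD. With DMSO the counts were 524, 246 and 184, and with DMF 259, 215 and 108. The CBD libraries lay far above all others, and in each replicate pair the DMF library lay below its DMSO library. The rise with CBD was 11.6-fold, and the log2 difference between the drugs was 4.20 ± 0.40 (SE, adjusted p = 4.84e-05 in limma). Mt2A, a second metallothionein gene, rose 4.67-fold with CBD from 1436, 1321 and 597 to 4033, 8338 and 3428, while its DMF libraries stood at 1149.9, 936 and 344 against 1841, 1114 and 668 with DMSO. Its log2 difference was 2.85 ± 0.31 (adjusted p = 0.000117 in limma). Mt1-ps3, named as a pseudogene of Mt1, rose 9.68-fold, but reads of Mt1 and its copy can be hard to separate and the sources used here do not state how shared reads were counted, so its value is uncertain.

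The zinc transporter gene Slc30a2, which serves vesicles, was low in the vehicles and with DMF. It stood at 13.0, 27.4 and 18.3 with EtOH, 79.0, 416 and 337 with CBD, 3.79, 19.7 and 16.9 with DMSO, and 17.1, 17.9 and 5.51 with DMF. CBD libraries again lay above all others, with replicate 1 the lowest of them, and the log2 difference was 3.40 ± 0.67 (SE, adjusted p = 0.00557 in limma). Slc39a10, a zinc importer of the cell surface, moved the other way. Its counts were 1960.0, 1983 and 1877 with EtOH and 1399, 670.4 and 702 with CBD, a fall to 0.449 of the vehicle, against 1926, 2166 and 1899 with DMSO and 2196, 2054 and 2201 with DMF. The log2 difference was -1.26 ± 0.23 (adjusted p = 0.00336 in limma), and no CBD library overlapped another.

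Of the 24 zinc genes tested, 5 rose and 1 fell with CBD (25%, against 0.369% of all genes tested). The study names Slc30a1, Slc30a2, Mt1 and Mt1-ps3 as changed by CBD at 4 h in these libraries, and the list includes them. The shares called with CBD and for the difference were therefore in part fixed by the choice of the list. With DMF 2 rose and 2 fell (16.7%, against 22.3%), and none was called with both drugs in the same direction. The drug difference was called for 8 (33.3%, against 10.4%), which were 6 higher with CBD and 2 higher with DMF. The importers Slc39a14 and Slc39a6 were called for the difference (0.48 and -0.31, log2) but not with CBD. The median difference of the list was -0.03, close to that of all genes tested (0.00), and the called genes lay at its ends. The calls with CBD and for the difference held for Slc30a1, Mt1, Mt2A and Mt1-ps3 in all 12 fits that left out 1 library. Not all of them held in other fits. Without all libraries numbered 3, 2 zinc genes were called with CBD and 4 for the difference, and without the block 3 were called for each.

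The other CBD-specific genes changed less. Ptpru, a receptor tyrosine phosphatase, Csrp1, a LIM domain protein of the actin cytoskeleton, Sipa1l2, Dscaml1, a cell adhesion molecule, Neto2, an auxiliary subunit of kainate receptors, and the tyrosine kinase Tnk2 rose with CBD by 0.26 to 0.48 on the log2 scale. Their changes with DMF were between -0.15 and 0.06, and their differences between the drugs were 0.29 to 0.57. Eny2, a subunit shared by transcription and mRNA export complexes, fell by 0.26 on the log2 scale with CBD and stood at 0.13 with DMF.

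**Figure D1:**
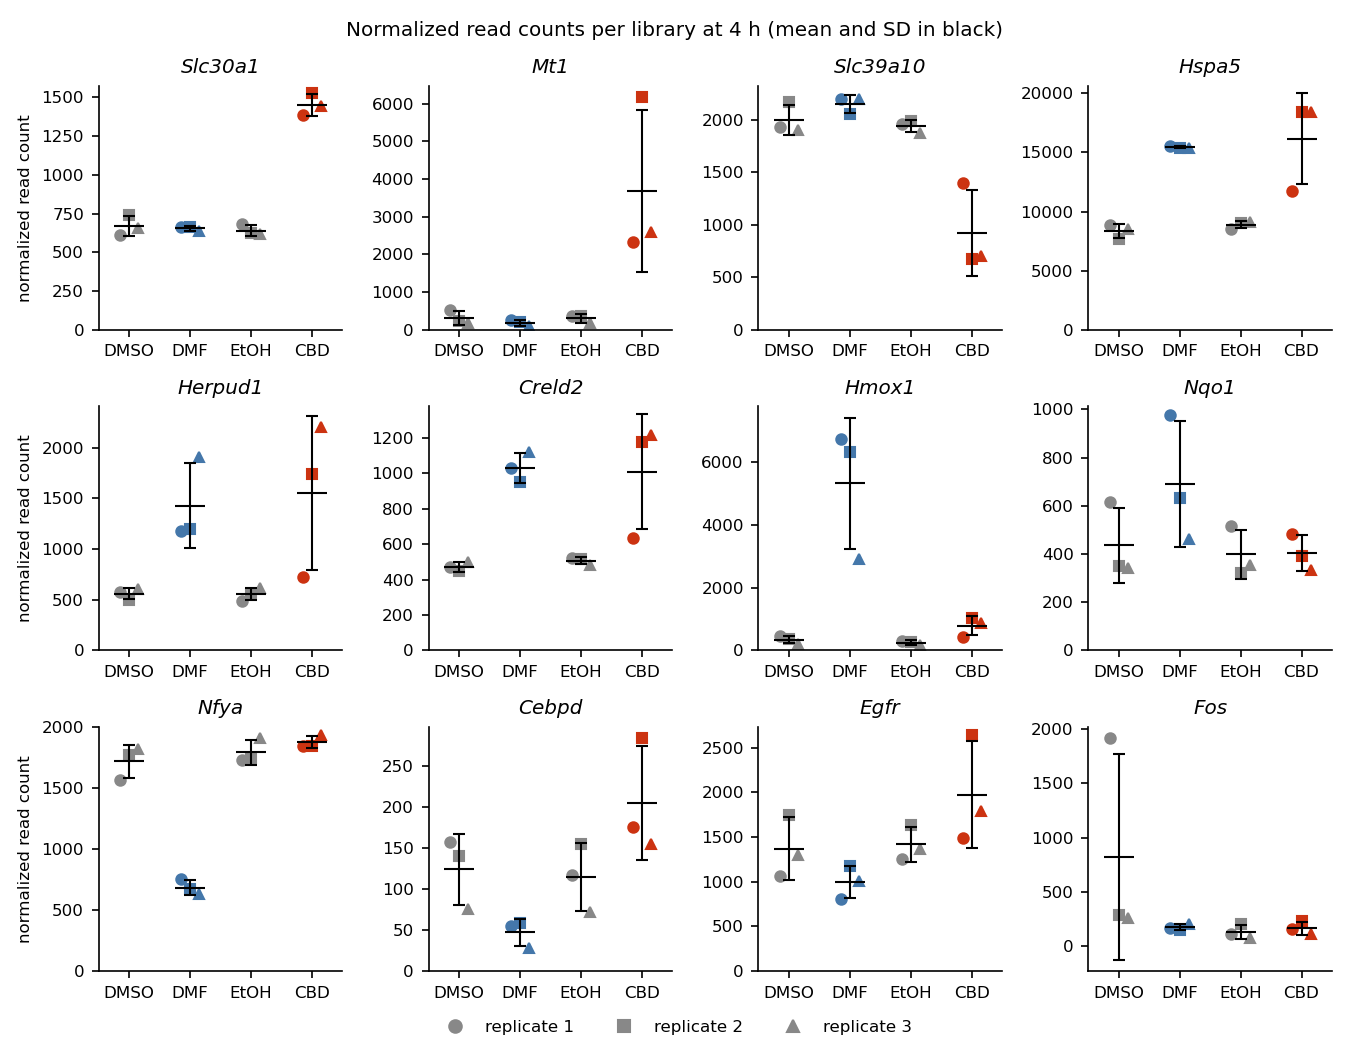
Normalized read counts (vertical axes, from 0 except where the SD of Fos reaches below it) of 12 genes in the 12 libraries, grouped by treatment, with a marker shape for each replicate number and the mean and SD in black (n = 3). The CBD libraries stand apart for Slc30a1, Mt1 and Slc39a10, the DMF libraries for Hmox1 and Nfya, and CBD replicate 1 is the lowest CBD library for Hspa5, Herpud1 and Creld2.

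Chaperones and degradation factors of the ER formed the largest share of the shared class, with 10 of its 24 genes. Hspa5 (chr3:18055405-18059891), the main chaperone of the ER, had normalized read counts of 8525, 9006 and 9078 with EtOH and 11740.3, 18364 and 18369.9 with CBD. It stood at 8839.7, 7694 and 8493 with DMSO and at 15516, 15370.5 and 15350.4 with DMF. Every treated library lay above every vehicle library, and CBD replicate 1 lay below the DMF libraries while the other CBD libraries lay above them. The log2 change was 0.84 ± 0.11 (SE) with CBD and 0.89 ± 0.11 with DMF, and the 95% interval of the difference ran from -0.38 to 0.28.

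Herpud1, which takes part in the degradation of ER proteins, rose 2.53-fold with CBD and 2.49-fold with DMF. Its counts were 492, 560.2 and 619 with EtOH, 722, 1743 and 2205 with CBD, 573, 499 and 607 with DMSO, and 1181, 1193 and 1912 with DMF. The difference of 0.02 had a 95% interval from -0.60 to 0.64, and CBD replicate 1 was the lowest and CBD replicate 3 the highest of the treated libraries. Creld2, a secreted ER stress protein, went from 520.2, 515 and 484 to 634, 1177 and 1215 with CBD and from 469, 447 and 499 to 1028, 951 and 1120.3 with DMF. The protein disulfide isomerase gene Pdia4 rose 1.65-fold with CBD and 1.76-fold with DMF.

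The remaining ER genes of the shared class were Hsp90b1, Hyou1, Calr and Pdia3, which are chaperones, and Sdf2l1 and Syvn1, which act in quality control and degradation. Of the 25 ER genes tested, 11 rose with CBD (44%, against 0.369% of all genes tested called in either direction) and 20 with DMF (80%, against 22.3%). None fell, and 10 rose with both. The medians were 0.37 with CBD and 0.44 with DMF on the log2 scale, against 0.00 for each over all genes tested. Xbp1, the transcription factor of the response, rose with CBD (0.36) and stood at 0.14 with DMF. Derl3, Edem1 and Dnajb11 were called for the difference, at -0.56, -0.31 and -0.31, with all 3 higher with DMF. Their share of the list, 12%, is near the 10.4% of all genes tested. The CBD count rested on single libraries, with 18 genes rising without CBD replicate 1, 2 without CBD replicate 2 or 3, 1 without EtOH replicate 2 and 0 without EtOH replicate 3, while 18 to 20 rose with DMF whichever library was left out. The difference was called for 7 without CBD replicate 1, 5 of them higher with CBD, and for 0 without EtOH replicate 1. Without the block, 0 rose with CBD and 15 with DMF, and 0 were called for the difference.

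Beyond the ER, the shared class held Ddit3, the stress transcription factor also called Chop, which rose 2.07-fold with CBD and 2.23-fold with DMF. Mtmr4, a phosphoinositide phosphatase, rose from 2672, 2839 and 3192 to 3212, 3591 and 4353 with CBD and from 2309, 2605 and 3063 to 3439, 3613 and 4287 with DMF, which is 0.35 ± 0.05 (SE) and 0.51 ± 0.05 on the log2 scale. Treated and vehicle libraries of each drug did not overlap, although the highest EtOH library lay close to the lowest CBD library. Adcyap1, the gene of the neuropeptide PACAP, fell to 0.608 of the vehicle with CBD and to 0.541 with DMF. Its counts were 328, 256 and 303 with EtOH, 188, 152 and 198 with CBD, 376, 254 and 278 with DMSO, and 163, 142 and 179 with DMF, so that treated and vehicle libraries did not overlap. Sqle and Mvk of sterol synthesis, the regulator Srebf1, the potassium channel gene Kcnc2, the RNA-binding protein gene Elavl2, Prdm8 and FAM187A fell with both drugs. Piga, Entrep1 and Slc4a8 rose with both.

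For 23 of the 24 shared genes the difference between the drugs was not called. The 95% interval of the difference lay within 1 on either side of 0 on the log2 scale for all 23, and within 0.5 for 15 of them. With 3 libraries a group, differences inside these intervals remain compatible with the data, so equal responses are not shown. Without the block, no gene was called with both drugs, since 3 were called with CBD.

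**Figure D2:**
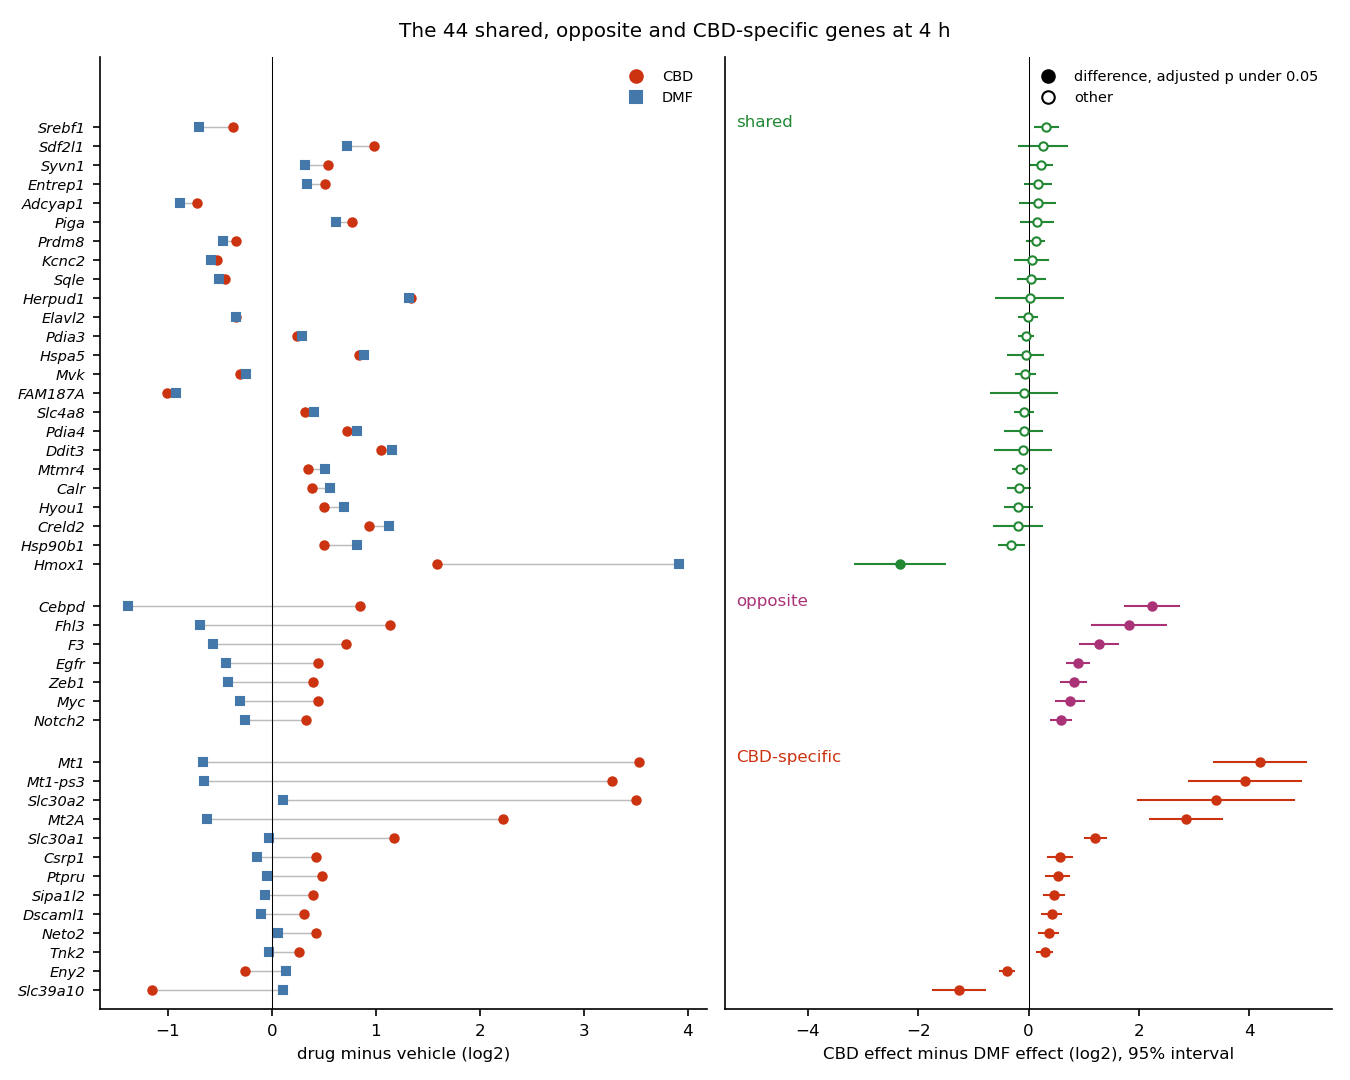
Left, log2 change from the vehicle with CBD (circles) and DMF (squares) for the 44 genes of the shared, opposite and CBD-specific classes, and right, the difference between the drugs with its 95% interval, filled where the adjusted p was under 0.05. The intervals of the shared genes cross or lie near 0 except that of Hmox1, which lies between -3.17 and -1.50.

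Hmox1 (chr19:13467244-13474079), heme oxygenase of the Nrf2 pathway, was the shared gene with a called difference. Its normalized read counts were 305, 281 and 168 with EtOH and 438, 1026 and 884 with CBD, against 449.5, 378 and 207 with DMSO and 6715, 6302 and 2911 with DMF. Every DMF library lay above every CBD library, and CBD replicate 1 lay within the range of the DMSO libraries. The rise was 3.01-fold with CBD and 15.1-fold with DMF, and the log2 difference was -2.33 ± 0.39 (SE, adjusted p = 0.00212 in limma). The difference was called in all 12 fits that left out 1 library, but the rise with CBD, and with it the place in the shared class, in 7 of them, and it was lost without CBD replicate 2 or 3 or any EtOH library.

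Several other targets of Nrf2 were called with DMF and for the difference. Txnrd1, a thioredoxin reductase, stood at 2522, 2416 and 2679 with EtOH, 2626, 2899 and 2696 with CBD, 2385, 2433 and 2671 with DMSO, and 4315, 4080.0 and 3633 with DMF. The DMF libraries lay above all others, and the difference was -0.57 ± 0.10 (SE, adjusted p = 0.00226 in limma). Nqo1, a quinone reductase, had 516, 323 and 356 with EtOH, 483, 392 and 334 with CBD, 615, 349.8 and 343 with DMSO, and 977, 634 and 461 with DMF. Here the groups overlapped, with replicate 1 the highest of each group, but within each replicate pair the DMF library was the higher, and the difference was -0.62 ± 0.16 (adjusted p = 0.0214).

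Osgin1, an oxidative stress gene with low counts, rose 5.49-fold with DMF and stood at 1.38-fold with CBD, with a difference of -1.99 ± 0.48 (SE, adjusted p = 0.0164 in limma). Gsta1, a glutathione transferase, and Gclc, the catalytic subunit of the enzyme that starts glutathione synthesis, differed by -0.92 and -0.56. The small Maf protein gene Mafg, a partner of Nrf2, differed by -0.43, and Me1, malic enzyme, by -0.31. Of the 34 Nrf2 genes tested, 17 rose and 1 fell with DMF (52.9%, against 22.3% of all genes tested), and 1 rose with CBD (2.94%, against 0.369%). The difference was called for 9 that were higher with DMF and 1, the transporter gene Abcc1, that was higher with CBD (29.4% together, against 10.4%). Without DMF replicate 2 the difference was called for 4, all higher with DMF, and with the spread of 24 libraries for 3. The median of the list was 0.02 with CBD and 0.19 with DMF. Slc7a11, the cystine importer, did not separate the drugs, with 1.08 ± 0.24 with CBD (adjusted p = 0.0787), 0.70 ± 0.24 with DMF (adjusted p = 0.0484) and a difference of 0.38 (95% interval -0.35 to 1.11). Srxn1 rose 2.99-fold with DMF and its difference of -1.06 missed the threshold (adjusted p = 0.0803). Nfe2l2, which encodes Nrf2, was called with neither drug.

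All 7 genes with opposite changes rose with CBD and fell with DMF. Cebpd, a C/EBP transcription factor, had normalized read counts of 117, 155 and 71.8 with EtOH, 176, 285 and 156 with CBD, 157, 140.1 and 75.3 with DMSO, and 54.3, 59.0 and 27.6 with DMF. CBD libraries lay above EtOH libraries and DMF libraries below DMSO libraries, and the log2 changes were 0.85 ± 0.17 (SE) with CBD and -1.39 ± 0.17 with DMF. Egfr, the receptor of epidermal growth factor, stood at 1249, 1637 and 1367 with EtOH, 1493, 2639.9 and 1791 with CBD, 1064, 1750.1 and 1299 with DMSO, and 807, 1172 and 1012 with DMF. Its groups overlapped, with replicate 2 the highest in each, but the change had 1 direction in all 3 pairs of each drug, and the difference was 0.89 ± 0.10 (adjusted p = 0.000148 in limma).

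F3, the coagulation initiator tissue factor, Zeb1, a zinc finger repressor, Notch2, a receptor of the Notch pathway, Myc and the LIM domain gene Fhl3 differed by 1.27, 0.82, 0.59, 0.75 and 1.82. For Fhl3 the vehicles did not overlap, at 18.3, 25.6 and 27.4 with EtOH and 48.3, 38.2 and 38.2 with DMSO, with an adjusted p of 0.179 between EtOH and DMSO in limma. The differences of the 7 genes were called in all 12 fits that left out 1 library. Genes chosen for called effects of opposite sign have large differences by that choice, so this does not test the class. Their CBD effects were near the threshold (adjusted p between 0.0129 and 0.0493), and the CBD effects of Cebpd, Zeb1, Notch2 and Myc were called in 3 of those 12 fits, while that of Fhl3 was called in 2.

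Among the genes with non-overlapping paired changes, which 31.6% of the genes tested had, the 8 with the smallest p that were higher with CBD were Nfya, Slc30a1, Cxcl12, Fam181a, Mt1, Zfp608, Socs2 and Pdgfrb. Apart from Slc30a1 and Mt1, they fell with DMF and were not called with CBD. Nfya (chr9:12586259-12613898), a subunit of the CCAAT-binding factor NF-Y, stood at 1730.3, 1743 and 1914 with EtOH, 1847, 1847 and 1935 with CBD, 1563, 1769 and 1824 with DMSO, and 751, 670.0 and 629.5 with DMF. The DMF libraries lay below all others at 0.398 of the vehicle, and the difference of 1.39 ± 0.10 (SE) had the smallest p of all genes (adjusted p = 8.21e-06 in limma). Cxcl12, a chemokine that guides migrating cells, fell to 0.321 of the vehicle with DMF, from 833, 776 and 533 to 310.1, 215 and 170.0, and stood at 851, 1065 and 566 with CBD against 798, 785 and 496 with EtOH. Socs2, a feedback inhibitor of cytokine signaling, fell to 0.444, Pdgfrb, a receptor of platelet-derived growth factor, to 0.42, Zfp608 to 0.596 and Fam181a to 0.287.

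The 8 that were higher with DMF were Dgcr8, Pcf11, Aspdh, Mir22, Rfx5, Castor2, Myom2 and Sds. Each rose with DMF and was not called with CBD. Dgcr8, the RNA-binding partner of Drosha in microRNA processing, stood at 1000.3, 1096 and 1155 with DMSO and 1959.8, 1986 and 2216 with DMF, against 1134, 1125 and 1124 with EtOH and 1063, 976 and 1015 with CBD. Pcf11, which ends transcription, rose 1.88-fold with DMF from 1194, 1288 and 1149 to 2186, 2165 and 2499, with 1100.5, 1027 and 1117 with EtOH and 1059, 908 and 883 with CBD. For both genes the DMF libraries lay above all others, and the differences were -1.07 ± 0.09 and -1.10 ± 0.11 (SE). Rfx5, a factor of the MHC class II promoter, rose 1.6-fold and Castor2, a relative of the arginine sensor Castor1, 1.68-fold. Myom2, a muscle M-band protein, went from 61.5, 67.2 and 50.6 to 197, 297 and 268, and Sds, serine dehydratase, rose 3.21-fold. The row named Mir22 covers the annotated hairpin and rose 3.06-fold, which says nothing of the mature microRNA, since the libraries were made from polyadenylated RNA. Of the 93 genes named by the rules for this comparison, 0 were called between EtOH and DMSO in limma, where 30 of all genes were called (0.205%) and 1719 had an unadjusted p under 0.05.

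**Figure D3:**
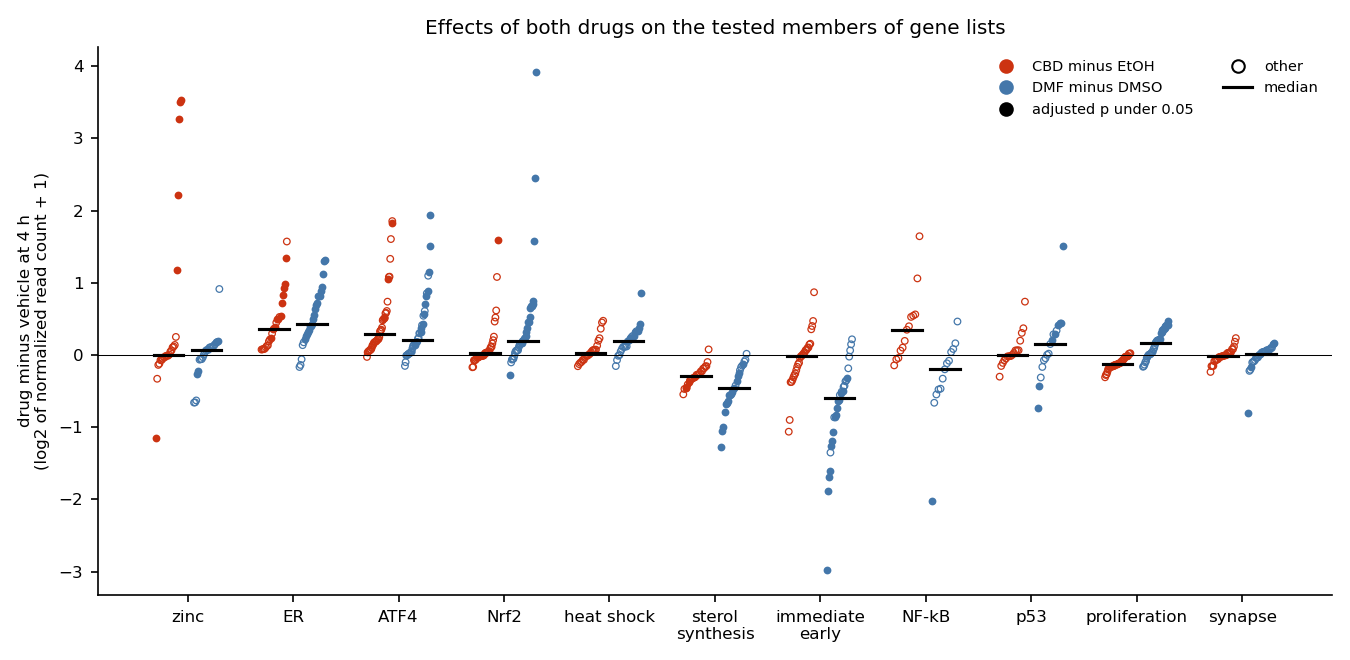
Log2 change from the vehicle at 4 h (vertical axis) of the tested members of 11 gene lists with CBD (red) and DMF (blue), sorted by value within each list, filled where the adjusted p was under 0.05, with the median as a black bar. The ER medians are 0.37 and 0.44, while the Nrf2 medians are 0.02 with CBD and 0.19 with DMF.

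Other stress and metabolic lists divided in different ways. Among 22 heat shock genes, which encode chaperones of the cytosol and mitochondria, 8 rose with DMF (36.4%, against 22.3% of all genes tested called in either direction). With CBD 0 were called in limma, edgeR and DESeq2 (3 at an unadjusted p under 0.05 in limma). The difference was called for 6 (27.3%, against 10.4%), all higher with DMF. Without DMF replicate 2, EtOH replicate 1 or EtOH replicate 3 it was called for 3. Hspa8, the constitutive Hsp70, had counts between 25463 and 27308 with DMF and between 18699 and 21576 in the other 9 libraries, with a difference of -0.36 ± 0.06 (SE, adjusted p = 0.00244 in limma). Dnajb1, Hsp90aa1 and Dnaja1 differed by -0.43, -0.36 and -0.30. Hspa1b rose by 0.87 with DMF, but it is nearly identical with Hspa1a and so uncertain.

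Of 38 genes of the Atf4 response and amino acid metabolism, 3 rose with CBD (7.89%, against 0.369% of all genes tested) and 11 with DMF (28.9%, against 22.3%). The medians were 0.29 and 0.20, and the difference was called for 1 (2.63%, against 10.4%). Estimates were positive for 37 of the 38 with CBD and 34 with DMF, and 27 and 19 had an unadjusted p under 0.05 in limma. Sesn2, a sestrin that restrains mTORC1, was the gene with a called difference, at 914, 895 and 954 with EtOH, 930.4, 1846 and 2116 with CBD, 943, 896 and 948 with DMSO, and 2210.2, 2564 and 3237 with DMF. The DMF libraries lay above all others, and CBD replicate 1 stood at the level of the vehicles while the other CBD libraries lay far above them. The difference of -0.77 was called in 5 of the 12 fits that left out 1 library. Without CBD replicate 1, 24 genes of the list rose with CBD instead of 3, and 11 were called higher with CBD and 1 higher with DMF. Without CBD replicate 2 or 3, or EtOH replicate 2 or 3, 0 rose with CBD. Atf3 rose 3.55-fold with CBD and stood at 1.53-fold with DMF, from counts of 38.3 to 49.6 with EtOH and of 103 to 195 with DMSO, and its difference of 1.22 missed the threshold (adjusted p = 0.0872).

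Estimates of sterol synthesis and uptake genes were mostly negative with both drugs, with more calls with DMF. Of the 24 genes tested, 17 fell with DMF (70.8%, against 22.3% of all genes tested called in either direction). With CBD 3 fell, Sqle and Mvk among them (12.5%, against 0.369%), and the medians were -0.46 with DMF and -0.29 with CBD. With each drug 23 of the 24 estimates were negative, and 18 with CBD and 20 with DMF had an unadjusted p under 0.05 in limma. The difference was called for 4 (16.7%, against 10.4%), all less negative with CBD, among them the synthesis enzymes Msmo1 (0.65), Fdft1 (0.44) and Dhcr7 (0.38). Msmo1 stood at 3513, 3615 and 4067 with EtOH, 2687, 2389.9 and 3442 with CBD, 3337, 4203 and 3541 with DMSO, and 1754, 1910.0 and 1656 with DMF. It was lower with CBD than with EtOH in each pair, and lower still with DMF. Without DMF replicate 3, 0 of the 24 genes were called for the difference and 11 fell with DMF. The falls with CBD were 0 without any single EtOH library, CBD replicate 2 or DMF replicate 3, and 11 without DMSO replicate 2, without which the DMF median was -0.28. Of 10 genes of sterol efflux and LXR, 0 were called for the difference in limma, edgeR and DESeq2, with 3 at an unadjusted p under 0.05 in limma.

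Immediate early genes, which neurons raise on activity, were lower with DMF than with DMSO, but this rested in part on DMSO replicate 1. Of 28 tested, 15 fell with DMF (53.6%, against 11.3% of all genes tested), and 0 were called with CBD in limma, edgeR and DESeq2 (2 at an unadjusted p under 0.05 in limma). For the difference, 3 were called higher with CBD (Gadd45b, Btg2 and Ier3), with a median difference of 0.60. That share of 10.7% is near the 10.4% of all genes tested. Fos had counts of 1918, 287 and 259.8 with DMSO, 162, 151 and 207 with DMF, 111, 198 and 73.1 with EtOH, and 154, 227 and 107 with CBD. DMSO replicate 1 held several times the Fos count of any other library. Without it, 4 genes fell and 3 rose with DMF, 2 were called higher with CBD and 1 higher with DMF for the difference, and the median difference was 0.17. Without DMSO replicate 2, in contrast, 18 were called higher with CBD, with a median difference of 0.80, and without DMF replicate 3 there was 1. DESeq2 called 8 falls with DMF in place of 15. DMSO replicate 1 also had the highest sum of endothelial and fibroblast markers, 159 CPM against 42.1 to 112 CPM in the other libraries, and the part of either in these results was not tested.

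In the NF-kB list, which holds genes of inflammation, the differences lay in the same direction. Of 13 genes tested, 4 were called higher with CBD for the difference (30.8%, against 10.4% of all genes tested). They were the chemokine gene Ccl2 (3.66), the subunit gene Nfkb2 (1.01) and the inhibitors Tnfaip3 (1.01) and Nfkbia (0.73). With CBD 0 of the 13 were called in limma, edgeR and DESeq2 (7 at an unadjusted p under 0.05 in limma). With DMF 1, Ccl2, fell (7.69%, against 22.3%). Ccl2 counts were low, at 6.09, 11.0 and 0.0 with EtOH, 7.18, 24.3 and 11.5 with CBD, 22.7, 52.1 and 30.4 with DMSO, and 17.1, 7.76 and 2.76 with DMF. The DMSO libraries lay above the EtOH libraries (adjusted p = 0.0653 between the vehicles in limma), and the CBD and DMF libraries overlapped. Without DMSO replicate 1, 4 genes were still called and the median difference went from 0.49 to 0.16, and without DMF replicate 3, 0 were called.

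Receptors and enzymes linked to cannabinoids were called with DMF at a share of 20%, near the 22.3% of all genes tested. Of 15 tested, 0 were called with CBD in limma, edgeR and DESeq2 (1 at an unadjusted p under 0.05 in limma), whereas with DMF Trpv1, the capsaicin-gated channel, rose 2.95-fold and Htr1a and Gpr12 fell. The difference was called for 3 of the 15 (20%, against 10.4%), 2 higher with CBD and 1, Trpv1, higher with DMF. Fits that left out 1 library called it for between 0 and 5 genes, edgeR for 2 and DESeq2 for 1. Trpv1 stood at 70.3, 59.0 and 67.1 with DMF and between 17.4 and 26.5 in the other 9 libraries, and its difference was -1.29 ± 0.34 (SE, adjusted p = 0.0236 in limma), called in 5 of the 12 fits that left out 1 library. Among 17 targets of p53, 6 rose and 2 fell with DMF (47.1%, against 22.3% of all genes tested). With CBD 0 were called in limma (5 at an unadjusted p under 0.05) against 1 in edgeR and 1 in DESeq2. The difference was called for 4 higher with DMF, Cdkn1a (-0.52), Ccng1, Zmat3 and Sesn2, and for 2 higher with CBD, Plk2 (0.50) and Btg2 (35.3% together, against 10.4%). Without DMF replicate 3, 0 of the 17 were called for the difference, and the other fits that left out 1 library called between 2 and 8.

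Part of the proliferation genes rose with DMF. Of 35 tested, 13 rose with DMF (37.1%, against 22.3% of all genes tested called in either direction). With CBD 0 were called in limma, edgeR and DESeq2 (5 at an unadjusted p under 0.05 in limma). The difference was called for 9 (25.7%, against 10.4%), all higher with DMF, with median changes of -0.13 with CBD and 0.17 with DMF. Nusap1, a spindle protein, had counts of 405, 341 and 312 with EtOH, 332, 291 and 234 with CBD, 400.3, 316 and 292 with DMSO, and 486, 407 and 396 with DMF, a difference of -0.67 ± 0.12 (SE, adjusted p = 0.00249 in limma). In each pair Nusap1 was lower with CBD than EtOH and higher with DMF than DMSO. Without the block, 0 of the 35 were called for the difference. Synaptic and excitability genes were called for the difference at the share of all genes tested (10.7% against 10.4%). Among these 28, Kcna1, Grin2a and Grin2b were called higher with CBD for the difference, and 0 were called with CBD in limma, edgeR and DESeq2 (6 at an unadjusted p under 0.05 in limma). For Kcna1 the count of DMSO replicate 1 was the highest of the 12, at 3728, and without that library 2 of the 28 genes were called. Of 31 proteasome subunits, 0 were called for the difference in limma, 1 in edgeR and 0 in DESeq2, with 3 at an unadjusted p under 0.05 in limma.

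Markers of cell types were called for the difference at a share of 9.76% (4 of 41), near the 10.4% of all genes tested. With DMF 6 of 41 were called (14.6%, against 22.3% of all genes tested). For the difference, 1 of 13 neuron markers (Tubb3, 0.61), 2 of 8 astrocyte markers (Sox9 and Slc1a2), 1 of 7 endothelial and fibroblast markers (Kdr, 1.42), and 0 of 8 oligodendrocyte lineage and 0 of 5 microglia markers were called. With CBD, limma called 0 of the astrocyte markers (3 at an unadjusted p under 0.05), against 1 in edgeR and 1 in DESeq2. Summed astrocyte markers were 3727, 4700 and 2003 CPM with CBD and 3603, 4301 and 2132 CPM with EtOH, and 3246, 3817 and 1870 CPM with DMF and 3919, 3699 and 2236 CPM with DMSO, so the groups overlapped. Summed neuron markers were 5314, 5145 and 5812 CPM with DMF against 5646, 5604 and 6388 CPM with DMSO, lower in each replicate pair, and 5948, 5250 and 6209 CPM with CBD against 5776, 5549 and 6419 CPM with EtOH. Taken singly, 8 of the 13 neuron markers had a positive and 5 a negative change with DMF, with a median of 0.05 (log2). Of these, 1 was called higher and 1 lower, so the lower sum does not hold for most of the markers. The part of the lower sum in the DMF results was not tested.

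The same difference of differences was read at 24 h, in a fit of 24 libraries that added the 12 of the same treatments at that time. There, 717 of 14806 genes were called (4.84%), and the change of the difference between the times was called for 603 (4.07%). Of the 1527 genes called at 4 h, 75 were also called at 24 h in the same direction, 51 were called in the opposite direction, and 336 had a called change. The test of the change uses the 4 h values again, so choosing genes by their call at 4 h favours a change toward 0. Of the 34 genes named for their class, their p or in the study's text that were called at 4 h, 11 were called at 24 h in the same direction and 0 in the opposite one.

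The zinc genes were among those that stayed. The log2 difference was 3.07 for Mt1 (adjusted p = 0.00024 in limma), 2.11 for Mt2A, 2.83 for Slc30a2 and -1.45 for Slc39a10 at 24 h, and Slc30a1 went from 1.21 to 0.58, a called change. Egfr and Zeb1 stayed higher with CBD at 24 h (0.60 and 0.49). Nqo1 and Gsta1 stayed higher with DMF (-1.79 and -1.40), and Me1 became more so (-1.14). Hmox1 stood at 3.72 with CBD and 3.09 with DMF at 24 h, with a difference of 0.63 that was not called (adjusted p = 0.81), and the change of its difference between the times was not called either (adjusted p = 0.302). For Hspa5 and Pdia4 of the shared class, a difference appeared at 24 h (0.98 and 0.89, adjusted p = 0.00936 and 0.00442 in limma), with CBD at 0.58 and 0.49 and DMF at -0.40 for both, and the change between the times was called for Pdia4 but missed the threshold for Hspa5 (adjusted p = 0.0592). The differences of Nfya, Cxcl12, Dgcr8 and Pcf11 were 0.29, 0.32, 0.11 and 0.11 at 24 h and were not called.

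**Figure D4:**
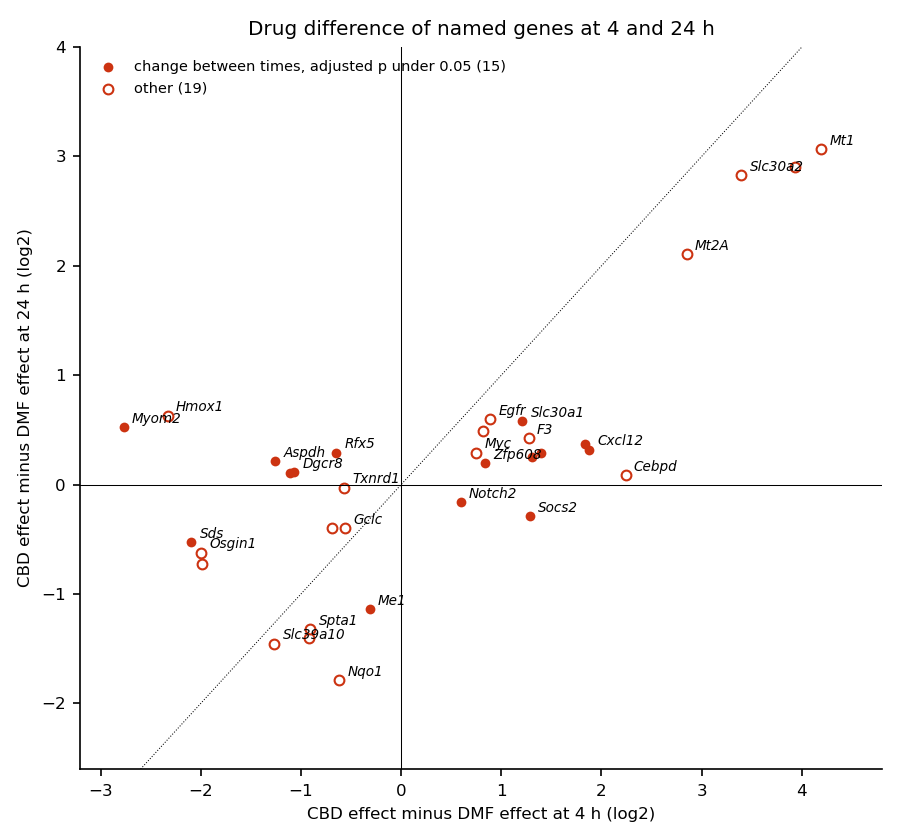
Log2 difference between the CBD and the DMF effect at 24 h (vertical axis) against that at 4 h (horizontal axis, from the fit at 4 h) for the 34 named genes called at 4 h, filled for the 15 whose change between the times was called, with a dotted line of equality. The metallothionein genes and Slc30a2 lie in the upper right between 2.11 and 3.07 at 24 h, while Nfya, Cxcl12, Cebpd and Myom2 lie between 0.09 and 0.53.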

How the data were processed

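RNA of 12 libraries (primary rat neurons at 4 h) was analysed, with 12 libraries at 24 h for the comparison of times. The submitters' processing notes name FastQC 0.12.1, cutadapt 4.4, Trimmomatic 0.39, HISAT2 2.2.1, HTSeq 2.0.3, R 4.3.1, DESeq2 1.40.2 and build mRatBN7.2. The strand and shared-read settings of the counting are not given in the sources used here. The deposited tables, 1 for each drug and time, hold normalized signal, which is read counts that the authors divided by the size factors of the 6 libraries of the table. Their log2 fold change and p-value columns, the authors' own comparisons, were not used. Whole reads were recovered from the steps of the low values, and all values came out within 0.01 of a whole number.

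Reads were divided by median-ratio size factors of the 12 libraries. Genes that passed filterByExpr of edgeR 4.0.16 (14615 of 20975) were fitted as log2(value + 1) in limma 3.58.1 with a trend in the spread, the replicate number as block and 6 residual degrees of freedom, in R 4.3.3. P-values were adjusted over all genes tested by the Benjamini-Hochberg method, and calls were made at 0.05. A fold change on this scale understates the change of low genes. Each library was compared with the others of its group, and none was a copy within sampling noise. The labels state that each experiment was repeated 3 times. The deviations of libraries with the same number correlated between 0.151 and 0.62 (18 pairs), against -0.497 to 0.195 for other numbers (36 pairs). The ranges overlapped at replicate 2, with 0.151 for DMSO and CBD replicate 2 and 0.195 for DMSO replicate 1 and CBD replicate 2. Deviations from group means also push the values of other numbers down. Pairing by number is thus less clear for replicate 2.

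The members and gene lists were chosen with earlier results of these data known. Named were genes in the study's text on neurons, the 8 genes with the smallest p in each direction whose paired changes did not overlap, 6 shared, 6 CBD-specific and up to 6 opposite genes, and up to 4 of each list by p. Other members of these classes and lists were named after their values were seen. Alternatives were no block, no filter, a pseudocount of 0.1, TMM scaling, the deposited size factors, edgeR, DESeq2 1.42.0, the spread of 24 libraries, and leaving out libraries. The fits were tested on simulated data. Promoter sequences came from RefSeq (build GRCr8), matched by symbol for 11108 of the genes tested. Python 3.11.15, pandas 2.3.3, NumPy 2.4.6 and matplotlib 3.10.9 were used for summaries and plots.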

Additional observations from a re-analysis of the deposited data

Results flagged for a closer look

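The drug difference changed between the times for 16 named genes by the test of the change itself in the fit of 24 libraries (limma, adjusted p under 0.05), and each value here is the log2 difference at 24 h minus that at 4 h. It moved toward DMF by -1.10 for Nfya, -1.55 for Cxcl12, -1.45 for Fam181a, -0.64 for Zfp608, -1.57 for Socs2 and -1.05 for Pdgfrb, which fell with DMF at 4 h. It moved toward CBD by 1.19 for Dgcr8, 1.22 for Pcf11, 1.47 for Aspdh, 0.94 for Rfx5, 3.30 for Myom2 and 1.57 for Sds, which rose with DMF at 4 h. These 12 and Slc30a1 were chosen by their p at 4 h, Notch2 as an opposite gene and Pdia4 as a shared gene. The test of the change uses the same 4 h values again. For genes chosen for a large difference this favours a move toward 0, and for a shared gene a move away from it. Their changes are therefore no independent test. The change was -0.63 for the zinc exporter gene Slc30a1, -0.82 for the malic enzyme gene Me1 and -0.75 for Notch2, and 0.98 for the ER isomerase gene Pdia4.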

How the results depend on the processing

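No named value that was called reversed under any alternative run, but the counts of calls depended on the block and on single libraries. Without the replicate block, which pairs the libraries, the difference was called for 148 genes in place of 1527, CBD changed 3 in place of 54 and DMF 1235 in place of 3262, and there were 0 shared, 143 DMF-specific, 3 CBD-specific and 0 opposite genes in place of 24, 1351, 13 and 7. At 24 h, the difference was called for 146 genes without the block and for 717 with it. With no filter on low counts, CBD changed 33 genes and 2 were opposite, and with a pseudocount of 0.1, 3 were opposite. DESeq2 called 106 genes with CBD and gave 49 shared and 24 CBD-specific genes. With the spread of 24 libraries, CBD changed 28 genes, 10 were shared and 3 opposite, and a fit of the 6 CBD and EtOH libraries alone called 333. Leaving out libraries gave between 162 and 2367 genes for the difference, 2 and 183 with CBD, 968 and 3564 for DMF against DMSO at 4 h, 0 and 77 shared, 154 and 1962 DMF-specific, 1 and 53 CBD-specific, and 0 and 26 opposite. The difference count moved by over 1.5 times without DMSO replicate 2 (2367) or 3 (870), DMF replicate 2 (848) or 3 (753), EtOH replicate 1 (830), 2 (999) or 3 (929), and without all libraries numbered 1 (772) or 3 (162). The CBD count was 183 without CBD replicate 1, 154 without DMSO replicate 2, 5 without EtOH replicate 2 or 3, and 2 without all libraries numbered 3. Of 99 called values of named genes, 38 were called in all 15 fits that left out libraries, 31 without the block, 99 with TMM scaling, 98 in edgeR, 93 in DESeq2 and 72 with the spread of 24 libraries. With 3 libraries a group the CBD counts in particular are imprecise, and the causes of these changes were not tested.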
